A study of Homo sapiens with 8 samples.

Results

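HCT116, a human colorectal cancer line, was made to carry an shRNA against UBA2 that is switched on by doxycycline (Dox), and mRNA was sequenced with and without Dox. The comparison covers every gene with enough counts, 13381 of the 23393 genes listed for these libraries. It uses 4 of the 8 libraries of the series. Each group had 2 libraries. Both groups were the same stable Tet-On line, in which the hairpin is driven by a Dox-responsive promoter. The treated cells received 1 μg/mL of Dox for 5 days, and the untreated cells are labelled as given DMSO over the same 5 days. The labels call the treated libraries SAE2 kd, SAE2 being another name of UBA2. Whether the line is 1 clone is not given in the sources used here. No Dox-treated HCT116 library without this hairpin was analysed here, so a response to Dox itself, a response to an expressed hairpin and a response to loss of the UBA2 protein cannot be told apart by group. The other 4 libraries, from HCT116 cells given control siRNA or TFAP2C siRNA for 48 hours, serve below as a comparison in which the labels name no Dox. Their titles do not say whether these cells carry the hairpin.

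SUMO is a small protein that is joined to lysines of other proteins. The E1 enzyme, a pair of SAE1 and UBA2, activates it, and E3 ligases help to place it, often on transcription factors and chromatin proteins. PML bodies are built on it, and it is known to restrain interferon genes and, through TRIM28, to keep repeats and germline genes silent. Dox is a tetracycline. Drugs of this class bind the bacterial ribosome, and they also slow the mitochondrial ribosome, which makes the core subunits of the respiratory chain. Mitochondrial stress can be relayed through OMA1, DELE1 and the kinase EIF2AK1 to eIF2alpha, after which the transcription factor ATF4 is translated and turns on genes for amino acid uptake, amino acid synthesis and tRNA charging. The same arm, called the integrated stress response, is reached through other kinases by amino acid shortage, unfolded protein in the ER and viral RNA.

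Total counts lay between 18213739 and 20607813 per library, and the biological coefficient of variation was 3.56%. Values per library are CPM, counts relative to the TMM-scaled library total, and log2 fold changes are Dox against no Dox. A gene was counted as changed at a Benjamini-Hochberg adjusted p under 0.05 in edgeR's quasi-likelihood test over all genes tested, two-sided, with n = 2 in each group. The epithelial markers EPCAM, KRT8, KRT18 and CDH1 and the intestinal factor CDX2 were present in every library. Of 20 colon markers, however, only 7 had enough counts to be tested, and another 7, among them CEACAM5 and FABP1, had no count in any library. Leukocyte markers summed to 9.24 to 9.93 CPM over the 4 libraries, fibroblast markers to 17.4 to 25.3 CPM and endothelial markers to 7.33 to 9.67 CPM. Most of each sum came from 1 gene: CD68 (5.02 to 5.77 CPM), COL1A1 (14.9 to 21.7 CPM) and ESAM (6.60 to 8.70 CPM). CD3D, COL1A2 and PECAM1 had no count in any library. In these bulk samples, fewer cells of a kind and less RNA per cell cannot be told apart. The sources used here do not say whether the replicates were separate cultures, so the p-values measure the spread between these libraries, which may be technical.

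Of the genes tested, 1336 (9.98%) passed the threshold, 738 higher with Dox (5.52%) and 598 lower (4.47%). Both Dox libraries lay beyond both untreated libraries for 51.3% of genes. Most changes were small. The median size of a changed gene was 0.31 on the log2 scale, 480 of the 1336 changed by less than 1.2-fold, and 214 by at least 1.5-fold. With scaling by library size in place of TMM the split was 588 higher and 805 lower, so the balance of directions depends on the scaling. The programs below are 45 gene lists written from general knowledge, with earlier results of these data known. They held 1229 tested genes and 258 of the changed ones. The lists are thus not independent of the data, and their shares beside that of all genes are a description without a set test.

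**Figure D1:**
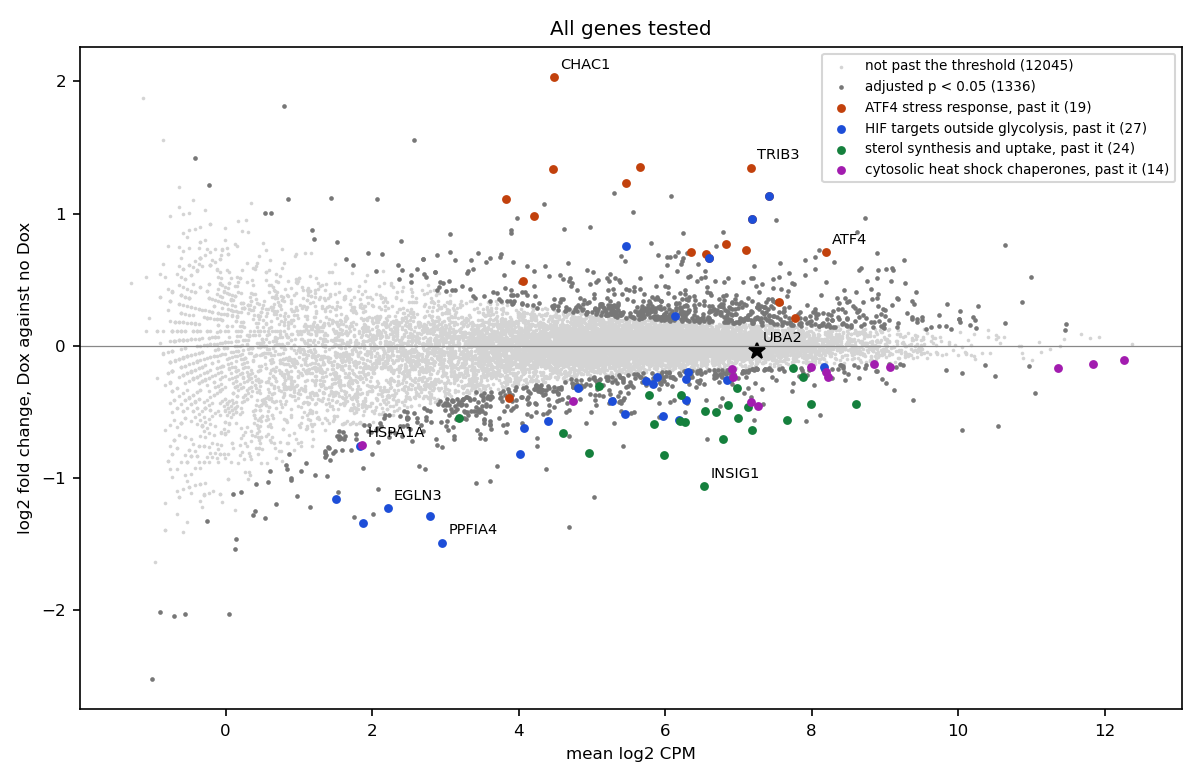
Mean log2 CPM over the 4 libraries (x axis) against the log2 fold change with Dox (y axis) for the 13381 genes tested, with the changed members of 4 lists in colour. The ATF4 stress genes with CHAC1 at the top, the falling HIF and sterol genes, and UBA2 (star) beside 0 can be read from it.

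Of the SUMO machinery itself, hardly a gene passed the test at the mRNA level. UBA2 (chromosome 19, 34919268 to 34960798 on hg19), the catalytic partner in the E1 enzyme and the target of the hairpin, had 162 and 146 CPM without Dox and 147 and 153 CPM with Dox. The 2 groups overlapped, and the untreated libraries stood further apart than the group means. The log2 fold change was -0.036 (standard error 0.056, 95% confidence interval -0.15 to 0.078, adjusted p = 0.766), and without replicate 1 of the untreated cells it was 0.038. A fall of UBA2 mRNA was therefore not detected, and a log2 fold change under -0.15 lies outside the interval, which rests on 2 libraries per group. The mRNA thus gives no check that the hairpin acted in these libraries. Nor does it check that the count columns, which are named by Dox, belong to the samples titled control and SAE2 kd. SAE1, the other partner in E1, had 300.3 and 293 CPM without Dox and 294 and 293 CPM with Dox (log2 fold change -0.016, interval -0.11 to 0.079). The modifier genes SUMO2 and SUMO3 gave intervals of -0.21 to 0.032 and -0.24 to 0.035, and neither passed the threshold.

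Of 27 tested SUMO pathway genes, 1 was higher, 0 were lower, and the median log2 fold change was -0.016 against -0.00042 over all genes. The call of the higher gene was lost with DESeq2 and in the fit of all 8 libraries, and without replicate 2 of the untreated or replicate 1 of the treated cells. Of the 9 SUMO proteases and 2 SUMO-targeted ubiquitin ligases 0 passed in edgeR, with log2 fold changes from -0.062 to 0.12 for the proteases. At an unadjusted p under 0.05 the whole pathway list held 3 higher genes and 1 lower, and with DESeq2 it held 0 of either at the adjusted threshold.

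**Figure D2:**
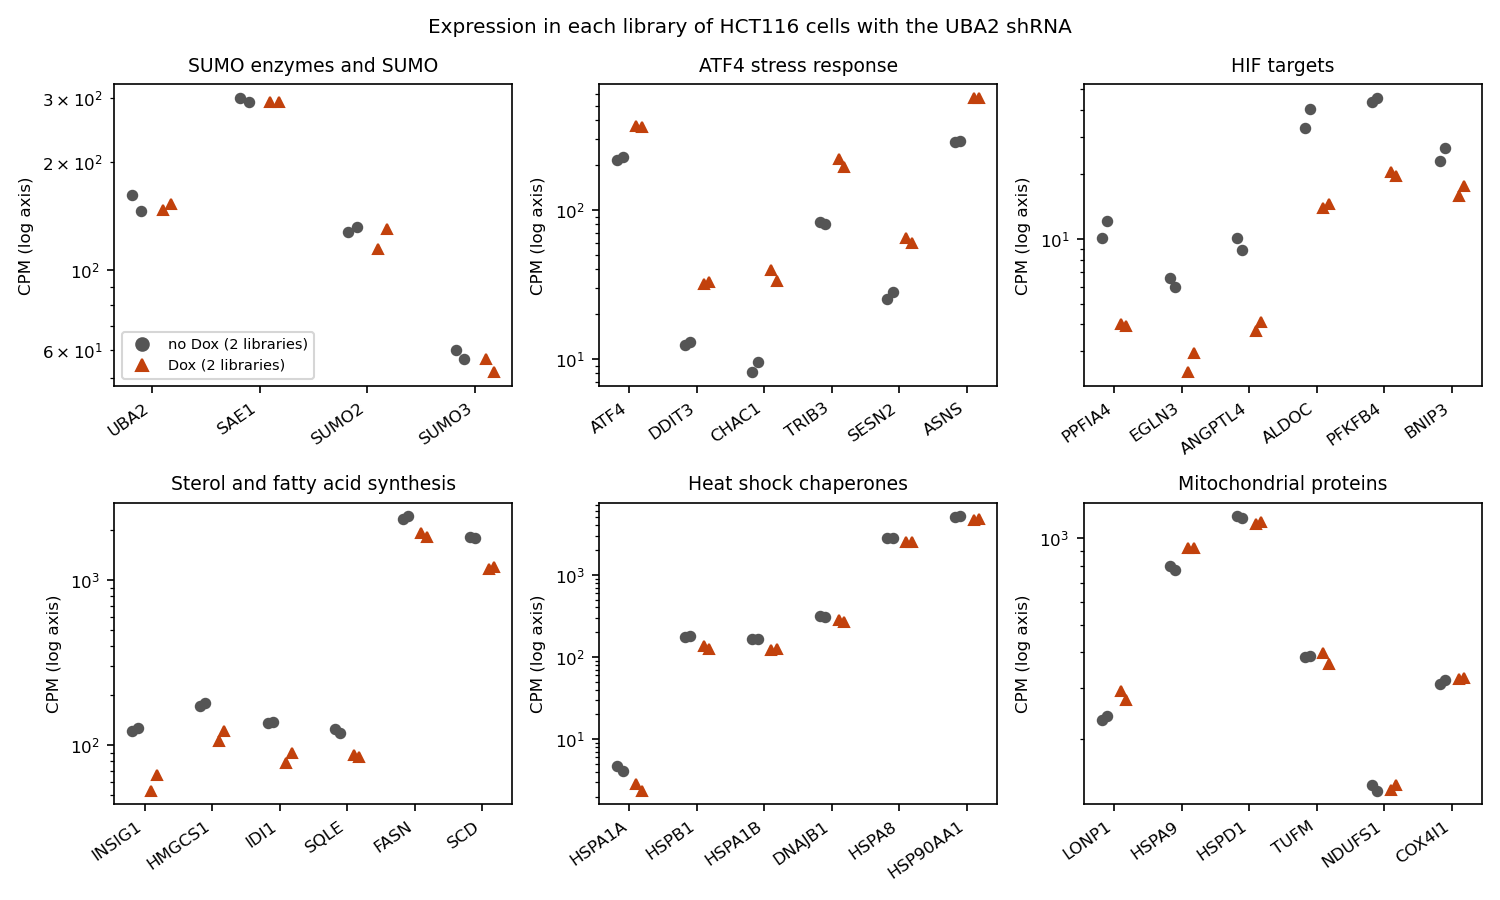
CPM in each library on log axes for 4 genes of the SUMO pathway and 6 genes of each of 5 other programs, grey circles for no Dox and orange triangles for Dox, 2 libraries each. The groups overlap for UBA2 and TUFM and lie apart for the ATF4, HIF and sterol genes.

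SUMO is known to hold interferon genes in check. Of 31 tested interferon-stimulated genes, 1 was higher and 2 were lower, a share of 9.68% that lies near the 9.98% over all genes, with a median of -0.11. ISG15, a ubiquitin-like protein of the antiviral response, had 30.1 and 31.8 CPM without Dox and 27.3 and 28.9 CPM with Dox (log2 fold change -0.14, adjusted p = 0.314). IFIT1, which binds foreign RNA, fell from 5.396 and 4.46 CPM to 2.78 and 2.79 CPM (log2 fold change -0.82, standard error 0.19, adjusted p = 0.00327). HERC6, an antiviral ubiquitin ligase family member, fell by 0.44 and LGALS3BP, a secreted glycoprotein, rose by 0.15 on the log2 scale. In the MHC class I list, HLA-F (-0.66) and the immunoproteasome subunit PSMB9 (-1.10) were lower among 14 tested genes, of which 3 passed in either direction (21.4%). The HLA genes are similar in sequence, and counting could have split their reads.

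In the lists of silencing genes, 16.7% of PML body and TRIM28 genes, 14.3% of germline genes and 6.25% of HDAC complex genes passed. The share was 14.3% in the AP-2 list and 9.98% over all genes, and these lists are small. Of 18 PML body and TRIM28 genes, 1 was higher (the kinase HIPK2, 0.16) and 2 were lower (the PML body protein SP110, -0.70, and the heterochromatin protein CBX1, -0.17). Among 39 listed germline and TRIM28-repressed genes, 7 had enough counts, and of these only KHDC1 passed, lower by 0.49. Of 32 genes of HDAC1 and HDAC2 complexes, TBL1X, a subunit of the NCOR corepressor, was higher (0.30) and the SIN3 subunit SAP30 was lower (-0.34). HDAC1 itself had 268 and 277 CPM without Dox and 258 and 263 CPM with Dox and HDAC2 had 257 and 257 CPM without Dox and 261 and 263 CPM with Dox, neither past the threshold. TFAP2C had 7.801 and 7.81 CPM without Dox and 5.94 and 6.87 CPM with Dox (log2 fold change -0.28, interval -0.57 to 0.0010, adjusted p = 0.222), and among 7 AP-2 family and cofactor genes KCTD15, a repressor of AP-2 activity, was higher at 0.34.

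Mitosis genes leaned downward by small amounts. Of 55 tested, 12 were lower and 1 was higher, a share of 23.6% beside 9.98% over all genes, with a median of -0.097. PTTG1, the securin that guards sister chromatids, fell from 67.3 and 65.8 CPM to 54.5 and 55.1 CPM (log2 fold change -0.28), the kinesin KIF20A by 0.24 and the spindle kinase AURKA by 0.22 on the log2 scale, while SKA1 of the kinetochore rose by 0.34. The lower count rested on the fit: it was 5 with DESeq2, 1 in the fit of all 8 libraries, 2 without replicate 1 of the untreated cells and 6 without replicate 1 of the treated cells. Among 48 DNA replication genes, the flap nuclease FEN1 (-0.18) and the helicase subunit MCM4 (-0.14) were lower and cyclin CCNE1 (0.26) was higher, a share of 6.25%. Of 27 p53 targets, 2 were higher and 3 lower, a share of 18.5%. Both that rose, the stress hormone GDF15 (0.70) and the death receptor TNFRSF10B (0.33), are also in the ATF4 list, and without genes of the ATF4 and amino acid lists 0 of 23 were higher. CDKN1A, the p53-driven cell cycle inhibitor, had 123 and 113 CPM without Dox and 129.8 and 122 CPM with Dox (adjusted p = 0.361), and MYC had 440.2 and 431 CPM without Dox and 535 and 486 CPM with Dox (log2 fold change 0.23, standard error 0.047, adjusted p = 0.000895).

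The ATF4 stress response rose. Of 32 tested genes of the list, 18 were higher and 1 was lower, where 5.52% of all genes were higher, and the median log2 fold change was 0.58. ATF4 itself (chromosome 22, 39916569 to 39918691 on hg19) went from 217 and 227 CPM to 368 and 359 CPM (log2 fold change 0.71, standard error 0.048, adjusted p = 6.82e-13). DDIT3 (CHOP), a transcription factor of prolonged stress, had 12.4 and 12.9 CPM without Dox and 31.6 and 32.6 CPM with Dox (log2 fold change 1.34, standard error 0.091, adjusted p = 8.53e-13). CHAC1 (chromosome 15, 41245636 to 41248717 on hg19), which degrades glutathione, had 39.4 and 33.2 CPM with Dox against 8.12 and 9.54 CPM without it, the largest rise among genes that met the naming rule (log2 fold change 2.03, standard error 0.11, adjusted p = 1.32e-15). In all of these genes both treated libraries lay above both untreated ones, and replicates of a group differed far less than the groups. The rule that names the largest rises requires such a gap, so for CHAC1 and DDIT3 it is no further support. Over all genes tested the groups lay apart for 51.3%.

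The remaining rises in this list span feedback, metabolic and secreted proteins. TRIB3, a pseudokinase that restrains ATF4 and AKT, rose from 82.7 and 80.3 CPM to 219 and 195 CPM (log2 fold change 1.35). UPP1, uridine phosphorylase, rose from 28.3 and 28.9 CPM to 73.7 and 72.9 CPM (1.36). The mTORC1 inhibitors SESN2 and DDIT4 rose by 1.23 and 1.13 on the log2 scale. The bZIP partners CEBPG (0.72), CEBPB (0.71), ATF3 (0.49) and JDP2 (0.98) were all higher, as were the secreted proteins ADM2 (1.11), STC2 (0.96), GDF15 and VEGFA (0.67). KLHL24, an adaptor of a ubiquitin ligase, was the lower gene (-0.39). The kinases that feed the pathway did not pass at the mRNA level, with log2 fold changes of 0.0096 for EIF2AK1 (HRI), -0.067 for EIF2AK3 (PERK) and -0.024 for EIF2AK4 (GCN2), and neither did the mitochondrial relay genes OMA1 (0.12) and DELE1 (0.040, listed as KIAA0141). INHBE, which is known as a marker of mitochondrial dysfunction, had 0.000 and 0.288 CPM without Dox and 0.555 and 0.591 CPM with Dox, few counts in any library (adjusted p = 0.0736).

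Genes that supply amino acids rose with it, by branch. In serine synthesis all 3 enzymes were higher. PSAT1, the transaminase of that pathway, went from 286 and 275 CPM to 516 and 501 CPM (log2 fold change 0.86, standard error 0.046, adjusted p = 2.39e-15), and PHGDH, its first step, had 304 and 284 CPM with Dox against 186 and 189 CPM without it (log2 fold change 0.65), with PSPH at 0.24. Of the mitochondrial one-carbon genes 4 of 9 were higher, led by MTHFD2 (388 and 380.4 CPM without Dox and 560.2 and 583 CPM with Dox, log2 fold change 0.57) and including MTHFD1L (0.30) and SHMT2 (0.15), whereas 0 of 7 cytosolic ones passed and 2 of these, among them TYMS (-0.13), were lower at an unadjusted p under 0.05. The difference between these branches was not tested. The count of 7 over the whole serine and one-carbon list was 4 with DESeq2 and 4 in the fit of all 8 libraries.

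ASNS, asparagine synthetase, had 284 and 291 CPM without Dox and 561 and 562 CPM with Dox (log2 fold change 0.96, standard error 0.045, adjusted p = 1.24e-16). In the same list of 19 tested genes, the aspartate transaminase GOT1 (0.43), the proline enzyme PYCR1 (0.33) and glutathione synthetase GSS (0.32) were higher, and the asparaginase ASRGL1 (-0.31) and ornithine transaminase OAT (-0.18) were lower. Among 23 amino acid transporters, 10 were higher and 4 lower, a share of 60.9% beside 9.98% over all genes. SLC7A11, which imports cystine, rose from 131 and 119.5 CPM to 237 and 248 CPM (log2 fold change 0.95, standard error 0.054, adjusted p = 1.33e-14). SLC1A4, an exchanger of neutral amino acids, had 28.04 and 27.4 CPM with Dox against 13.6 and 12.8 CPM without it (log2 fold change 1.07), and the glycine transporter SLC6A9 had 22.3 and 19.4 CPM with Dox against 10.7 and 10.6 CPM without it (0.97). Both chains of the large neutral amino acid exchanger rose, SLC7A5 by 0.76 and SLC3A2 by 0.70 on the log2 scale. The 4 lower ones were SLC7A8 (-0.51), SLC1A3 (-0.43), SLC7A2 (-0.24) and SLC6A6 (-0.19), and 0 of these 4 passed with DESeq2.

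Genes for charging tRNA in the cytosol rose, and those for the mitochondrion did not pass. The difference between the 2 lists was not tested. Of 24 cytosolic synthetase genes and partners, 14 were higher and 0 lower (2 lower at an unadjusted p under 0.05, and 0 with DESeq2), with a median of 0.29. SARS, the seryl-tRNA synthetase, went from 205 and 201 CPM to 321 and 326 CPM (log2 fold change 0.67, standard error 0.048, adjusted p = 2.47e-12), AARS from 327 and 328 CPM to 502 and 486 CPM (log2 fold change 0.59), and CARS from 118 and 119 CPM to 178 and 181 CPM (0.60). The tRNA exporter XPOT rose by 0.53. Synthetases that did not pass include KARS (-0.0034), QARS (-0.088), RARS (-0.12) and DARS (-0.14), which sit in the multisynthetase complex, as do the higher EPRS (0.31), LARS (0.32) and MARS (0.49). Of 17 mitochondrial synthetases 0 passed in edgeR or DESeq2 and 1 had an unadjusted p under 0.05 in edgeR, with a range of log2 fold changes from -0.11 to 0.28, and IARS2 (-0.048) and EARS2 (-0.034) were the most abundant by CPM.

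**Figure D3:**
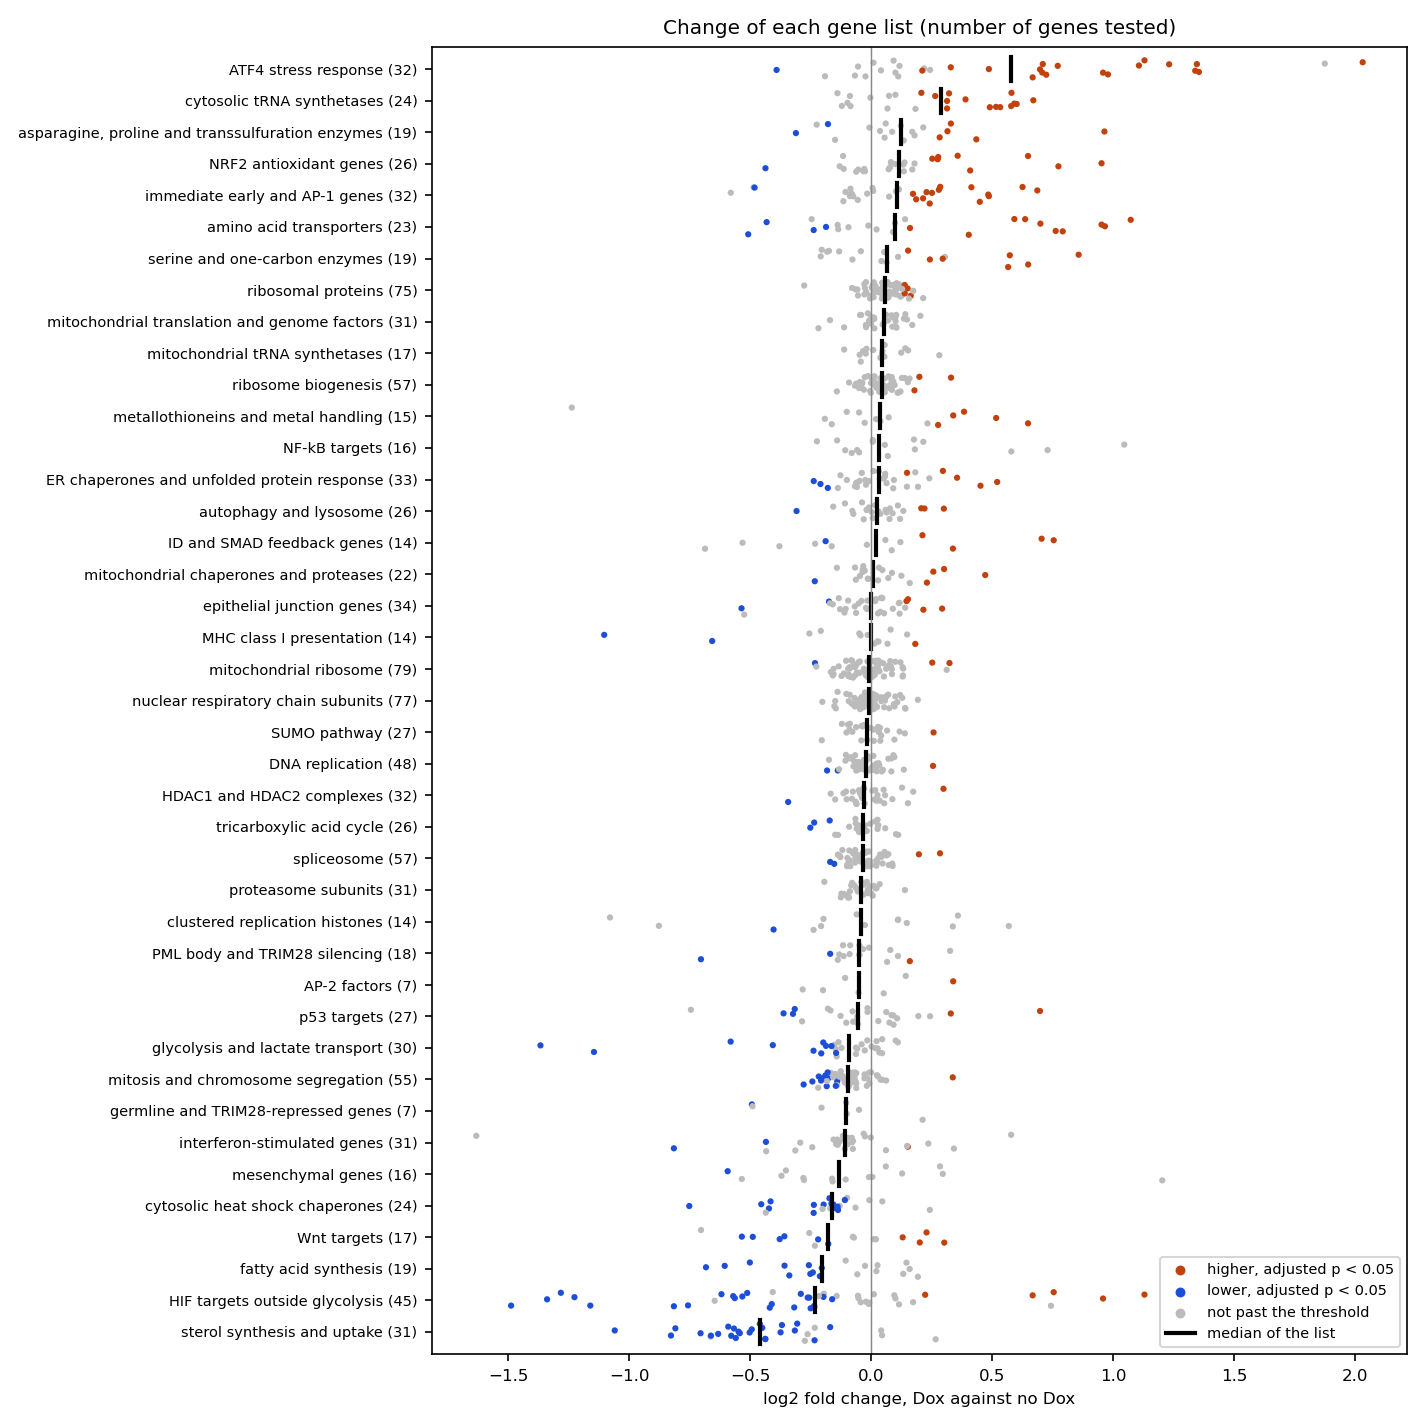
Log2 fold change with Dox (x axis) of each tested gene in 41 gene lists ordered by their medians (black bars), with changed genes in orange and blue. The ATF4 list has the highest median at 0.58 and the sterol list the lowest at -0.46, with the mitochondrial lists around 0.

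Nuclear genes for the mitochondrion itself moved little. Of 77 respiratory chain subunits 0 passed in edgeR or DESeq2, and at an unadjusted p under 0.05 edgeR had 3 higher and 3 lower, with log2 fold changes from -0.20 to 0.19 and a median of -0.0094. ATP5B of the ATP synthase had 1162 and 1149 CPM without Dox and 1144 and 1177 CPM with Dox and ATP5A1 had 662 and 674 CPM without Dox and 628 and 646 CPM with Dox. Of 79 mitochondrial ribosomal proteins, MRPS10 (0.32) and MRPL24 (0.25) were higher and MRPL49 (-0.23) was lower, with a median of -0.0094. In 31 genes of mitochondrial translation and genome upkeep 0 passed in edgeR or DESeq2, with 6 higher and 0 lower at an unadjusted p under 0.05. Among them were the elongation factor TUFM (384 and 390.0 CPM without Dox and 398 and 366 CPM with Dox) and the RNA-binding protein LRPPRC (579 and 562 CPM without Dox and 597 and 620.1 CPM with Dox). Transcripts of the mitochondrial genome were not analysed here. In 26 genes of the citric acid cycle and its branches, ACLY (-0.25), IDH1 (-0.24) and DLAT (-0.17) were lower, a share of 11.5% beside 9.98% over all genes. ACLY and IDH1 are cytosolic and feed lipid synthesis.

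The mitochondrial protein folding list was mixed. LONP1, the matrix protease, rose from 234 and 240.4 CPM to 294 and 273 CPM (log2 fold change 0.26, standard error 0.049, adjusted p = 0.000430), HSPA9, the mitochondrial HSP70, had 924 and 926 CPM with Dox against 799.9 and 777 CPM without it (log2 fold change 0.23), and its exchange factor GRPEL2 had 118 and 123 CPM with Dox against 103 and 92.8 CPM without it (0.30). The chaperonin pair did not follow. HSPD1 (HSP60) had 1191 and 1178 CPM without Dox and 1120.5 and 1141 CPM with Dox (log2 fold change -0.067, adjusted p = 0.329), and its partner HSPE1 fell from 67.9 and 80.3 CPM to 60.5 and 65.8 CPM (log2 fold change -0.23, standard error 0.071, adjusted p = 0.03004). Of 22 genes in all, 4 were higher and 1 lower, a share of 22.7% beside 9.98% over all genes. IMMP2L, a peptidase of the inner membrane, was the other riser (0.47).

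Since many of the risen genes are textbook targets of ATF4, their promoters were searched for the element that ATF4 and C/EBP factors share, with the letters TGATGNAAN on either strand in the 300 bases from 250 before to 50 after the start. RefSeq (GRCh38.p14) gave a promoter for 10617 of the 13381 genes by symbol (79.3%), which is under 80%, so the shares across genes are void as a check and stand as a description. The element lay in 1.60% of all these promoters, in 5.25% of 590 promoters of higher genes and in 1.89% of 477 promoters of lower genes. In the 5 ATF4 and amino acid lists it lay in 15 of 41 promoters of higher genes (36.6%) and in 0 of 43 of genes that did not pass. The 41 stand for 54 higher genes of these lists and the 43 for 56 that did not pass, and the 7 lower genes are in neither. Of the 5 lists, 1 was written for the ATF4 response and the others by pathway or gene family. All were written with earlier results of these data known, so the shares are no independent support. Stretches from the 4 changed genes with the largest rise whose match has 30 bases on each side, all before the start, are shown with the match in capitals, 5′ to 3′ on the gene's strand.
CHAC1, chr15:40953231-40953299, plus strand: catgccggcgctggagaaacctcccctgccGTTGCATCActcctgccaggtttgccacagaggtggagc
ASNS, chr7:97872438-97872506, minus strand: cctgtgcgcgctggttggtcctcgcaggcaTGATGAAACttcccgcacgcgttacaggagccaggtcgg
AARS, chr16:70289656-70289724, minus strand: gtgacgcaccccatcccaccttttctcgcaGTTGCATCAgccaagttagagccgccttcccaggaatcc
ATF3, chr1:212565186-212565254, plus strand: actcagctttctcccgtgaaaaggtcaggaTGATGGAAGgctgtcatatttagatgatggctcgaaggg
In CHAC1 and AARS the element reads on the opposite strand. A match of letters is not a measured binding site.

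HIF targets fell. HIF is the factor that cells stabilise when oxygen is low, because the EGLN enzymes that mark it for destruction need oxygen. Of 45 tested targets outside glycolysis, 22 were lower and 5 higher, where 4.47% of all genes were lower, and the median log2 fold change was -0.23. EGLN3, an oxygen sensor that HIF itself induces, had 6.57 and 5.99 CPM without Dox and 2.39 and 2.95 CPM with Dox (log2 fold change -1.23, standard error 0.18, adjusted p = 7.67e-06). ANGPTL4, a secreted inhibitor of lipoprotein lipase, fell from 10.2 and 8.91 CPM to 3.72 and 4.08 CPM (log2 fold change -1.28, standard error 0.15, adjusted p = 1.23e-07). PPFIA4 (chromosome 1, 203003610 to 203047860 on hg19), a liprin, had 3.998 and 3.92 CPM with Dox against 10.1 and 12.1 CPM without it (log2 fold change -1.49, standard error 0.15, adjusted p = 4.05e-09), the largest fall among genes that met the naming rule. The groups did not overlap in any of these genes, but the rule that names the largest falls requires this of each of them.

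Further falls were in MIR210HG, the host transcript of the hypoxia miRNA (from 5.29 and 4.84 CPM to 1.999 and 1.99 CPM, log2 fold change -1.34), ANKRD37 (-1.16), the carbonic anhydrase CA12 (-0.76), the mitophagy receptors BNIP3 (-0.57) and BNIP3L (-0.53), the collagen hydroxylase PLOD2 (-0.51), the vasodilator peptide ADM (-0.42), the demethylase KDM3A (-0.41) and the oxygen sensor EGLN1 (-0.26). HIF1A mRNA did not pass, with 296 and 269 CPM without Dox and 274 and 294 CPM with Dox (log2 fold change 0.011, interval -0.094 to 0.12). EPAS1, which encodes HIF-2alpha, was higher by 0.22. Among the other risers, DDIT4, STC2 and VEGFA are also in the ATF4 list. Without genes of the ATF4 and amino acid lists, 2 of 41 were higher and 22 lower. The lower count over the list was 13 with DESeq2. CA9, a defining target, had too few counts to be tested.

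Part of the glycolysis list fell as well. Of 30 tested, 10 were lower and 0 higher (2 higher at an unadjusted p under 0.05, and 0 with DESeq2). ALDOC, the aldolase C isoform, went from 32.9 and 40.4 CPM to 13.9 and 14.6 CPM (log2 fold change -1.37, standard error 0.097, adjusted p = 2.53e-12), and PFKFB4, which sets the level of a glycolysis activator, from 43.7 and 45.3 CPM to 20.6 and 19.6 CPM (log2 fold change -1.15). The kinase PDK3, which inhibits pyruvate dehydrogenase, fell by 0.58, the enolase ENO2 by 0.41, lactate dehydrogenase LDHA by 0.21 and the lactate exporter SLC16A3 by 0.20 on the log2 scale. Abundant housekeeping steps did not pass, such as GAPDH (0.0013), PKM (0.027), ENO1 (-0.027) and ALDOA (-0.058), nor did the glucose transporter SLC2A1 (0.10). The lower count was 5 in the fit of all 8 libraries.

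The hypoxia element NACGTGN, searched on both strands in the same windows, lay in 26.9% of all promoters and in 26.6% of promoters of lower genes. In the HIF and glycolysis lists it lay in 19 of 29 promoters of lower genes (65.5%) and in 12 of 31 of genes that did not pass (38.7%). These letters are short and overlap the E-box CACGTG that other factors use. The 4 falling genes of those lists with the largest change and a match that can be shown with its flanks before the start are printed the same way, all with the element as searched. Capitals mark 1 match in each, while over the whole window, with both strands counted, the promoter of PPFIA4 holds 2 matches and that of ANKRD37 holds 3, some of which reach into the lower-case letters shown.
PPFIA4, chr1:203026342-203026408, plus strand: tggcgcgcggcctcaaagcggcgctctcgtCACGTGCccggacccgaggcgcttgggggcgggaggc
MIR210HG, chr11:568592-568658, minus strand: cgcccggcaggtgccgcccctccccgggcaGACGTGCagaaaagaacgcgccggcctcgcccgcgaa
ANKRD37, chr4:185396667-185396733, plus strand: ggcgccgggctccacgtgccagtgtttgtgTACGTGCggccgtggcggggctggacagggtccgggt
PDK3, chrX:24465194-24465260, plus strand: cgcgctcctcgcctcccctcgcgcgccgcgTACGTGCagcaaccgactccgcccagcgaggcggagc
The shares describe letters only and say nothing of whether HIF was bound.

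Sterol synthesis fell almost as a whole. Cholesterol genes are switched on by SREBP2 when membranes run low in sterol and are held off when SREBP stays in the ER, bound through INSIG1. Of 31 tested genes of sterol synthesis, uptake and control, 24 were lower and 0 higher in edgeR (0 higher also at an unadjusted p under 0.05 and with DESeq2), with a median of -0.46, and in the synthesis pathway proper 18 of 20 were lower. INSIG1 (chromosome 7, 155089490 to 155101940 on hg19), itself an SREBP target, had 121 and 127 CPM without Dox and 52.9 and 66.2 CPM with Dox (log2 fold change -1.06, standard error 0.071, adjusted p = 5.99e-13). HMGCS1, the first committed enzyme, went from 172 and 181 CPM to 106 and 121 CPM (log2 fold change -0.63, standard error 0.059, adjusted p = 1.08e-09). In these genes both treated libraries lay below both untreated ones, which the rule that names the largest falls requires of INSIG1.

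Falls ran from the mevalonate steps to the last steps of cholesterol synthesis, for example IDI1 (-0.71), MVK (-0.66), FDFT1 (-0.56), SQLE (-0.50), LSS (-0.58) and DHCR7 (-0.54). The sterol carrier STARD4 fell by 0.81 on the log2 scale. SREBF2, which encodes SREBP2, fell by 0.23 and SREBF1 by 0.17, less than the median of the list. The 2 synthesis genes that did not pass were PMVK (0.045) and TM7SF2 (-0.26). The cholesterol exporter ABCA1, which is regulated the opposite way, had 0.748 and 1.01 CPM without Dox and 0.888 and 1.24 CPM with Dox (log2 fold change 0.27, adjusted p = 0.722).

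Fatty acid genes followed, with 10 of 19 lower and 0 higher in edgeR (3 higher at an unadjusted p under 0.05, and 0 with DESeq2). SCD, the desaturase that makes oleate, had 1824 and 1792 CPM without Dox and 1169 and 1207 CPM with Dox (log2 fold change -0.61, standard error 0.039, adjusted p = 2.63e-13), and FASN, the synthase, had 1915 and 1812 CPM with Dox against 2346 and 2431 CPM without it (log2 fold change -0.36). Per kilobase of the gene model, SCD stood at 331 RPKM without Dox and 218 with it, and FASN at 284 and 221. LPIN1, a phosphatase of glycerolipid synthesis, fell by 0.68, ACSL1 by 0.50 and ACACA, the rate-limiting carboxylase, by 0.21 on the log2 scale. The sterol element TCACNCCAC lay in 1 of 26 promoters of lower genes of the sterol and fatty acid lists, that of SREBF2, and in 1.01% of all promoters. No match says only that these exact letters are not in the window.

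Cytosolic heat shock chaperones fell by small steps. Of 24 tested, 14 were lower and 0 higher in edgeR (0 higher also at an unadjusted p under 0.05 and with DESeq2), with a median of -0.16. That is 58.3% past the threshold beside 9.98% over all genes. HSPB1 (HSP27) went from 177 and 179 CPM to 135 and 126 CPM (log2 fold change -0.45, standard error 0.054, adjusted p = 1.56e-07). HSPA1A and HSPA1B, the stress-induced HSP70 genes, fell by 0.75 and 0.42 on the log2 scale, but they are near-identical copies and their split of reads is uncertain. The constitutive HSPA8 had 2811 and 2777 CPM without Dox and 2491 and 2495 CPM with Dox (-0.16) and HSP90AA1 had 5019.7 and 5142 CPM without Dox and 4645 and 4779 CPM with Dox (-0.11). The count of 14 was 9 with DESeq2, 5 in the fit of all 8 libraries, 5 without replicate 1 and 9 without replicate 2 of the untreated cells, and 8 without replicate 1 of the treated cells.

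The ER branch of the unfolded protein response was mixed, with 5 of 33 higher and 3 lower, a share of 24.2% beside 9.98% over all genes. XBP1, the factor spliced by IRE1, rose from 78.2 and 75.4 CPM to 112 and 108 CPM (log2 fold change 0.52, standard error 0.058, adjusted p = 5.19e-08) and HERPUD1, a part of the degradation machinery of the ER, from 47.9 and 50.99 CPM to 70.3 and 65.1 CPM (log2 fold change 0.45). ATF6, another sensor, rose by 0.36, ERP29 by 0.30 and HSPA5 (BiP), the main ER chaperone, by 0.15 on the log2 scale. SDF2L1 (-0.24), MANF (-0.21) and CALR (-0.18), which are also ER chaperones or their partners, were lower. HSP90B1 (-0.10) and DNAJB9 (0.24) did not pass.

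Antioxidant and metal genes rose in part. Of 26 NRF2 genes, 8 were higher and 1 lower, a share of 34.6% beside 9.98% over all genes. Without SLC7A11 and other genes of the ATF4 and amino acid lists 7 of 23 were higher. NQO1, a quinone reductase, had 333 and 337 CPM without Dox and 451 and 439 CPM with Dox (log2 fold change 0.41, standard error 0.045, adjusted p = 3.25e-08). FTH1, the ferritin heavy chain that stores iron, rose from 480.4 and 476 CPM to 751 and 748 CPM (log2 fold change 0.65), and the exporter ABCC3 rose from 40.5 and 42.3 CPM to 71.5 and 70.2 CPM (0.77), while the exporter ABCC2 fell by 0.44. HMOX1, heme oxygenase, had 18.8 and 20.03 CPM without Dox and 18.8 and 18.4 CPM with Dox (adjusted p = 0.7599). Among 15 tested genes of metal handling, the metallothioneins MT2A (from 152 and 158 CPM to 236 and 207 CPM, log2 fold change 0.52), MT1X (0.38) and MT1E (0.34) were higher. FTH1 and the metallothioneins have similar copies, so their counts are uncertain.

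Signalling lists moved in both directions. In the immediate early and AP-1 list 46.9% of genes passed, and in the Wnt list 58.8%, beside 9.98% over all genes. Of 32 immediate early and AP-1 genes, 14 were higher and 1 lower, and the higher count was 9 in the fit of all 8 libraries and 9 without replicate 1 of the untreated cells. KLF4, a factor of epithelial differentiation, rose from 46.6 and 45.7 CPM to 75.9 and 72.6 CPM (log2 fold change 0.69, standard error 0.065, adjusted p = 1.46e-09), the AP-1 subunit FOSL1 had 246 and 215 CPM with Dox against 148 and 150.2 CPM without it (log2 fold change 0.63), and the ERK feedback genes DUSP4 (0.48), ETV5 (0.45) and SPRY4 (0.41) were higher, whereas FOS (-0.11) and EGR1 (-0.088) did not pass. NR4A1, an orphan nuclear receptor, was lower (-0.48). Of 17 Wnt targets, the feedback genes AXIN2 (from 46.8 and 51.4 CPM to 33.5 and 36.5 CPM, log2 fold change -0.49) and NKD1 (-0.38), the receptor EPHB3 (-0.53) and 3 others were lower, and CCND1 (0.30), SOX9 (0.20), CD44 (0.13) and MYC were higher. Of 14 tested ID and SMAD feedback genes 4 were higher, among them SMAD7 (0.34), ID1 (0.21) and PMEPA1 (0.70), and 1 was lower, the differentiation inhibitor ID2 (-0.19), which is 35.7% past the threshold beside 9.98% over all genes. Of 16 NF-kB targets 0 passed in edgeR or DESeq2 and 1 was higher at an unadjusted p under 0.05, among them NFKB1 (0.056) and NFKB2 (0.0065).

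Among general lists, the share past the threshold was above the 9.98% over all genes for epithelial junction genes (17.6%) and autophagy genes (15.4%). In the other lists of this paragraph it was lower, from 0 for proteasome subunits to 7.14% for histone genes. Of 75 ribosomal protein genes 4 were higher (among them RPL12, RPS18 and RPS6, between 0.14 and 0.16, with 20 higher and 0 lower at an unadjusted p under 0.05), of 57 ribosome biogenesis genes 3 (led by RRP12 at 0.33), and of 31 proteasome subunits 0 passed in edgeR or DESeq2 and 4 were lower at an unadjusted p under 0.05, PSMD2 standing at -0.10 and PSMD1 at -0.018. Ribosomal genes have many processed pseudogenes that can share reads. Of 57 spliceosome genes 2 were higher (PLRG1, 0.28, and SF3A1, 0.20) and 2 lower (DDX23, -0.17, and HNRNPM, -0.15). In 26 autophagy genes MAP1LC3B (0.30), CTSL (0.22) and ATG12 (0.21) were higher and GABARAPL1 (-0.31) was lower. In 34 epithelial junction genes 4 were higher and 2 lower, with CLDN7 at 0.29, RAB25 at 0.22, CLDN4 at -0.17 and the epithelial factor ELF3 at -0.54, and CDH1 had 78.97 and 85.4 CPM without Dox and 80.6 and 89.2 CPM with Dox. Of 16 mesenchymal genes, FN1 was lower (-0.59), and VIM had 6.73 and 7.24 CPM without Dox and 7.496 and 7.79 CPM with Dox. HIST1H2BK (-0.40) was the only one of 14 tested histone genes past the threshold.

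The other experiment in HCT116, TFAP2C siRNA against control siRNA for 48 hours, was set beside that with Dox. The experiments were counted separately, and the second table carries gene positions of GRCh38 and newer symbols although the labels name hg19 for both, so changes and not levels were compared, in a fit of all 8 libraries over 13179 shared genes. The change with Dox differed from that with TFAP2C siRNA for 313 genes (2.37%). Some genes described above moved the same way with TFAP2C siRNA and passed the threshold there too. Examples are FOSL1 (0.51), ABCC2 (-0.50), IFIT1 (-0.50) and PALM3 (-0.78), and their difference between experiments did not pass. MYC had 0.22 with TFAP2C siRNA, where it did not pass. In the ATF4 list 15 of 32 genes rose more with Dox and 1 less, with medians of 0.67 and -0.023 over the genes in both tables. CHAC1 had a log2 fold change of -0.22 with TFAP2C siRNA (a difference of 2.27, standard error 0.21, adjusted p = 5.33e-05), ATF4 one of -0.0096 (a difference of 0.73, standard error 0.084, adjusted p = 0.000175), and ASNS one of -0.20 (a difference of 1.18, standard error 0.13, adjusted p = 0.000110). Among the cytosolic tRNA synthetases 9 of 24, and among the amino acid transporters 9 of 23, rose more with Dox.

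On the falling side, 16 of 32 sterol genes, 13 of 46 HIF targets and 8 of 30 glycolysis genes had a lower change with Dox than with TFAP2C siRNA. INSIG1 had -0.00096 with TFAP2C siRNA (a difference of -1.05, standard error 0.12, adjusted p = 0.000122), PPFIA4 -0.25 (a difference of -1.22, standard error 0.21, adjusted p = 0.00414), and ALDOC -0.19 (a difference of -1.16, standard error 0.13, adjusted p = 0.000121). Of the heat shock list 2 of 24 differed. In the SUMO pathway 1 of 27 genes differed, and UBA2 did not pass (a difference of 0.061, standard error 0.090, adjusted p = 0.829). In the lists of respiratory chain subunits, mitochondrial ribosomal proteins and mitochondrial translation, 0 of 62, 0 of 79 and 0 of 30 differed in edgeR, and at an unadjusted p under 0.05 the change with Dox was lower for 3, 6 and 0 and higher for 0, 0 and 1. The 15 tested ATP synthase genes carry other symbols in the second table and are not among the 62. The number of genes that differed rested on single libraries: it was 1554 without replicate 2 of the TFAP2C siRNA cells, 533 without their replicate 1, and 113 to 164 with any other library left out. A difference also holds any effect of TFAP2C loss (TFAP2C itself had -2.34 with TFAP2C siRNA), of the induced hairpin and of a loss of UBA2 protein. The duration (5 days against 48 hours), the transfection and the gene annotation of the count table differ between the experiments together with Dox. The cells may differ as well, since the titles do not say whether the siRNA cells carry the hairpin. The parts of all these cannot be told apart.

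**Figure D4:**
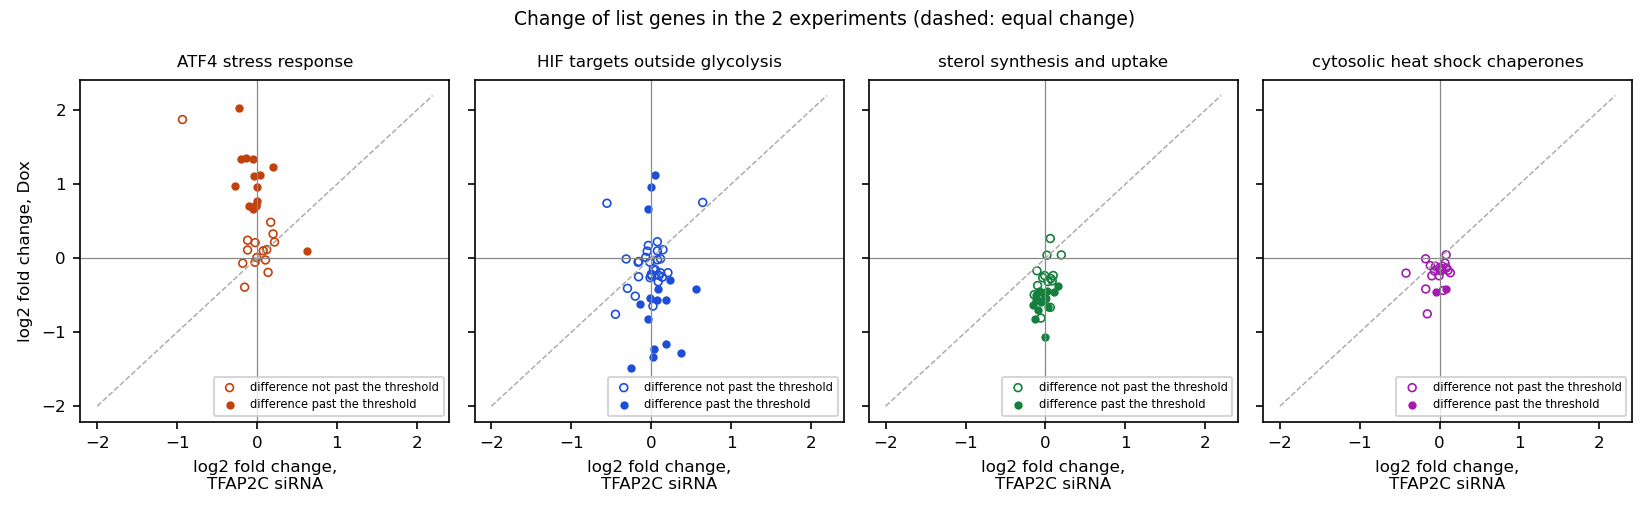
Log2 fold change with TFAP2C siRNA (x axis) against that with Dox (y axis) for the genes of 4 lists, filled where the 2 changes differed at an adjusted p under 0.05. In the ATF4 and sterol panels, the filled points lie above and below 0 on the Dox axis and mostly close to 0 on the siRNA axis.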

How the data were processed

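mRNA was extracted from HCT116 cells, which stably expressed Tet-On shUBA2 in the experiment with Dox. Libraries were made with a KAPA mRNA kit, and reads were aligned to hg19 with TopHat2 and counted on RefSeq genes with HTSeq (version 0.9.1 in the submitters' processing notes). The authors deposited raw read counts per gene, without normalization, 1 table per experiment. The table of the siRNA experiment carries GRCh38 positions, so the tables were joined by symbol alone. The strand setting of the counting is not given in the sources used here, so genes that overlap on opposite strands can share reads. Every count column belonged to a labelled sample.

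In R 4.3.3, edgeR 4.0.16 was run with filterByExpr, TMM scaling and the quasi-likelihood test on the 4 libraries with and without Dox, without a term for the replicate number, and p-values were adjusted by Benjamini-Hochberg over all genes tested. CPM and RPKM are from TMM-scaled library sizes. Total counts of 18213739 to 20607813 limit what can be seen in genes of a few CPM, and p-values and intervals rest on 2 libraries per group. The difference between experiments was fitted over all 8 libraries. Alternatives were other scalings, DESeq2 1.42.0, no filter or at least 10 counts in every library, a replicate term, a minimum fold of 1.2, all 8 libraries together and each library left out. The code was tested on simulated counts.

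The members and gene lists were chosen with earlier results of these data known. Genes named are those of the SUMO pathway and the study, the 15 largest rises and 15 largest falls among changed genes whose log2 CPM averages 1 or more and whose groups do not overlap, up to 4 changed genes per list (or its 2 most abundant where none changed), and defining genes of a list. Other members of a list are named after their values were seen. Promoter sequences and their positions are from RefSeq (GRCh38.p14), matched by symbol, and gene positions are from the deposited table (hg19). Some genes that this rule names are not reported here.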

Additional observations from a re-analysis of the deposited data

How the results depend on the processing

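No changed gene turned its sign in any refit, but many calls rested on the fit. DESeq2 size factors, no filter, a minimum of 10 counts and a replicate block left the numbers of higher and lower genes within 1.5 times. DESeq2's Wald test gave 443 higher and 222 lower and kept 665 of the 1336 calls (67 had no adjusted p there), the fit of all 8 libraries gave 406 and 290 and kept 693, and a test against a fold of 1.2 gave 131 and 91. With each library left out in turn, 477 to 736 were higher and 356 to 535 lower, both fewest without replicate 2 of the untreated cells, and UBA2 moved from -0.106 to 0.0375. Of 139 named genes past the threshold, 27 lost the call with DESeq2 (8 had no adjusted p), 36 in the fit of all 8 libraries, 10 by library size only, 3 with the replicate block, 17 to 27 with a library left out and 0 or 1 otherwise. The cause of these shifts was not tested, beside fewer samples where a library was left out.

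List counts that moved by over 1.5 times were these. With DESeq2, lower HIF targets were 13, heat shock genes 9 and mitosis genes 5, and higher SUMO pathway genes 0 and serine genes 4. In the fit of all 8 libraries, lower heat shock genes were 5, glycolysis genes 5 and mitosis genes 1, and higher SUMO pathway genes 0, serine genes 4 and early genes 9. With each library left out, lower heat shock genes ranged from 5 to 12 and mitosis genes from 2 to 11, and higher SUMO pathway genes from 0 to 1 and early genes from 9 to 12. The higher counts of the ATF4, transporter, cytosolic tRNA synthetase and NRF2 lists and the lower counts of the sterol and fatty acid lists stayed within 1.5 times in these refits, and list counts were not run with the minimum fold of 1.2.

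The difference between experiments covered 607 genes without a filter, 173 with a replicate block, and 113 to 1554 with each library left out. Genes with a change near 0 turned sign. By library size only, ATP5B was -0.0193, NFKB2 -0.0196 and HIF1A -0.0147. With each library left out, log2 fold changes ranged from -0.0322 to 0.00135 for SAE1, -0.0914 to 0.0258 for EARS2, -0.0816 to 0.0386 for TUFM, -0.0130 to 0.0273 for ATP5B, -0.0638 to 0.0759 for NFKB2, -0.0561 to 0.0814 for HIF1A and -0.0286 to 0.118 for CDH1.

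Deviations from the group means of same-numbered libraries correlated by 0.074 and the labels do not say that a number marks a shared batch, so the replicate numbers were not taken as pairs. With the replicate block 698 genes were higher and 610 lower, and UBA2 did not pass there. Genes under a few CPM carry wide errors at this depth.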

Other observations

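Some genes that hold epithelial cells to the basement membrane were higher in the Dox libraries, and others were not. They belong to none of the lists and were chosen after their values were seen, so their number is no measure of how unusual they are. LAMB3 and LAMA3 encode chains of laminin, the ligand laid down under epithelia. LAMB3 went from 52.4 and 57.2 CPM to 94.3 and 84.7 CPM (log2 fold change 0.71, standard error 0.066, adjusted p = 1.41e-09) and LAMA3 from 15.1 and 14.2 CPM to 20.99 and 17.8 CPM (log2 fold change 0.41). Also higher were the integrin chains ITGA3 (439 and 450.4 CPM without Dox and 686 and 634 CPM with Dox, log2 fold change 0.57), ITGA6 (0.42) and ITGB4 (0.49), and PLEC, the plectin that ties ITGB4 to keratin (from 1619 and 1729 CPM to 2540.0 and 2263 CPM, log2 fold change 0.52). COL17A1, a collagen of the same junctions, had 2.83 and 2.49 CPM without Dox and 2.67 and 3.22 CPM with Dox and did not pass (adjusted p = 0.741), and neither did the tetraspanin CD151 (0.052). LAMB1, a chain of other laminins, was lower (-0.25). The urokinase PLAU, which starts plasmin activity at the cell surface, rose from 55.9 and 52.1 CPM to 98.3 and 96.5 CPM (0.85) and its receptor PLAUR by 0.43. The keratins KRT80 (0.88), KRT7 (0.62), KRT8 (0.18) and KRT18 (0.25) were also higher, with the reservation that keratin genes have similar copies.

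Other genes with the largest changes fall outside the lists. Among the rises, PCK2, the mitochondrial enzyme that makes phosphoenolpyruvate, went from 41.9 and 43.4 CPM to 97.1 and 90.1 CPM (log2 fold change 1.13, standard error 0.065, adjusted p = 1.57e-14), FAM129A from 24.6 and 24.4 CPM to 56.7 and 52.3 CPM (log2 fold change 1.15) and NRP1, a co-receptor for semaphorins and VEGF, from 33.8 and 29.3 CPM to 61.9 and 65.2 CPM (1.01). LURAP1L (1.55), HKDC1 (1.12) and KRT81 (1.11) rose from under 4 CPM. Among the falls, MEF2C, a MADS-box transcription factor, went from 14.2 and 13.9 CPM to 6.44 and 7.25 CPM (log2 fold change -1.04, standard error 0.12, adjusted p = 1.31e-07) and ARID5B, a DNA-binding protein, from 15.9 and 16.3 CPM to 7.996 and 7.84 CPM (log2 fold change -1.02). The glucose transporter SLC2A12 (-1.30), PALM3 (-1.27), the protocadherin FAT4 (-1.22), SPTSSB (-1.11), a subunit of serine palmitoyltransferase, and TMSB15A (-1.08) fell at levels of a few CPM. KITLG, the ligand of the receptor KIT, was far more abundant, with 1327 and 1256 CPM without Dox and 767 and 897 CPM with Dox (log2 fold change -0.64, standard error 0.050, adjusted p = 2.36e-11), and is named after its values were seen.

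By chromosome, median log2 fold changes on the main chromosomes lay near 0. Chromosome 20 had the highest share of changed genes among those with over 100 genes tested, 14.1% of 355, with 39 higher and 11 lower, beside 9.98% over all genes. On chromosome 18, 18 of 185 genes tested were higher and 3 lower, a share of 11.4%, and on chromosome 12 the share was 12.1%.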
